A study of Mus musculus with 2 samples.

Results

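The genes described here are p53 and 9 of its best known target genes, as read in whole embryonic mouse lung on 2 expression arrays. The 10 genes were Trp53, Mdm2, Cdkn1a, Btg2, Sesn2, Ccng1, Bax, Plk2, Phlda3 and Gadd45a. A probe set, the group of short probes that reads a transcript, was taken for a gene when the array annotation gave it that single gene symbol. By this rule 8 of the 10 genes had 16 probe sets, of 18193 genes and 34945 probe sets in all, while Trp53 and Bax have a promoter but no array value here, because no probe set carried their symbol in the annotation used.

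The mutant lungs were homozygous for Nmyc9a, a hypomorphic (reduced-function) allele of Mycn, and were set against lungs labelled normal and wildtype. Both were whole lungs at embryonic day 18, shortly before birth, pooled before RNA extraction, and each group held 1 array. The labels name no treatment, and the strain, the sex and how many lungs were pooled were not stated in the sources used. With 1 array per group no test could be run, no difference has a replicate check, and pooling hides how far animals differ.

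The transcription factor p53 is held at a low level in undisturbed cells by Mdm2, a ubiquitin ligase that marks it for degradation and that p53 itself induces. DNA damage or other stress frees p53, which binds paired copies of a degenerate decamer in target genes and raises genes that halt the cell cycle, kill the cell, repair DNA or restrain growth. Its targets are therefore read as a group when p53 activity is in question, although most of them also answer to other factors. In whole-lung RNA, fewer cells of a type and less RNA per cell cannot be told apart.

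The decamer that p53 recognises is shown first, because these genes are grouped by their answer to p53. The windows ran from 250 bases before to 50 bases after each annotated transcription start (RefSeq, GRCm38.p6), and all 10 genes matched at least 1 window, Cdkn1a having 2. The p53 consensus decamer was searched by name, and since it reads the same on both strands 1 search covered both. It occurred in the windows of 6 of the 10 genes, namely Trp53, Mdm2, Cdkn1a, Ccng1, Bax and Gadd45a. Of all 27025 genes with a window 2582 held it, as did 8.36% of all 32851 windows. A pair of exact decamers at most 13 bases apart occurred in 24 windows (0.0731%), and Cdkn1a was the only one of the 10 genes with such a pair.

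The first 3 promoters below hold a decamer, printed in capitals, and show the closest matches to the consensus and the gene whose probe sets disagreed most. The last, Btg2, holds none and is the gene that lay past 1.5-fold on the higher side.
Cdkn1a promoter, chr17:29090729-29091028, plus strand: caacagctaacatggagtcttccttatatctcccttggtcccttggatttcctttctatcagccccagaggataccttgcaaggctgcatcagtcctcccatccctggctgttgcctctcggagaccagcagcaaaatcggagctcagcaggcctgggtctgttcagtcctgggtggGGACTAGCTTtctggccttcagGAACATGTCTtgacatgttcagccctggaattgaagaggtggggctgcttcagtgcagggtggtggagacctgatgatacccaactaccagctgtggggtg
Ccng1 promoter, chr11:40755237-40755536, minus strand: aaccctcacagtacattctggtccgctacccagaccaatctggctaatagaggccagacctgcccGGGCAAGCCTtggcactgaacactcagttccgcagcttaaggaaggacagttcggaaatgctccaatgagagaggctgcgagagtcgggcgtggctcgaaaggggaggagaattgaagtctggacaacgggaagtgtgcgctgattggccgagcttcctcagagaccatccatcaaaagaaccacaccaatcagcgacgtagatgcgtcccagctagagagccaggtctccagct
Mdm2 promoter, chr10:117710709-117711008, minus strand: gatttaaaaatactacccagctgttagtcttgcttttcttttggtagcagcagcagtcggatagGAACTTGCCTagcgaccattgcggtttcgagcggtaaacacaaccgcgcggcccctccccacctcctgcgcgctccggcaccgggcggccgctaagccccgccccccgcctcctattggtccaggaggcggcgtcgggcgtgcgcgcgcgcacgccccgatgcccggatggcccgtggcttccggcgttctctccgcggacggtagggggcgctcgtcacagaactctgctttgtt
Btg2 promoter, chr1:134079106-134079405, minus strand: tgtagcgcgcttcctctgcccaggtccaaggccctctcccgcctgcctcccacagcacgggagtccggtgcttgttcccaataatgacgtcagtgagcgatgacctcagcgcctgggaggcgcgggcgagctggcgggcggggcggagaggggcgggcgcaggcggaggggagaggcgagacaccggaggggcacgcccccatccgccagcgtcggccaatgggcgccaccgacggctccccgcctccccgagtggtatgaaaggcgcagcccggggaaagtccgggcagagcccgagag

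In the Cdkn1a window, GGACTAGCTT lay 73 to 64 bases before the start and GAACATGTCT 51 to 42 bases before it. The 10 bases directly after GAACATGTCT missed the consensus at 1 position, giving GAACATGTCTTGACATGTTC. This window belongs to the upstream of the 2 annotated Cdkn1a starts, and the window of the downstream start held no decamer. In the Ccng1 window the 10 bases directly before the decamer also missed at 1 position, giving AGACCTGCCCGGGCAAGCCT. The Mdm2 decamer lay 186 to 177 bases and the Gadd45a decamer 40 to 31 bases before the start. The 10 bases before and after it missed the consensus at 6 and 5 positions in Mdm2, and at 7 and 6 in Gadd45a. No decamer lay in the windows of Btg2, Sesn2, Plk2 and Phlda3, which says only that these letters are not in these windows. A match is a description of the sequence and not a bound site.

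**Figure D1:**
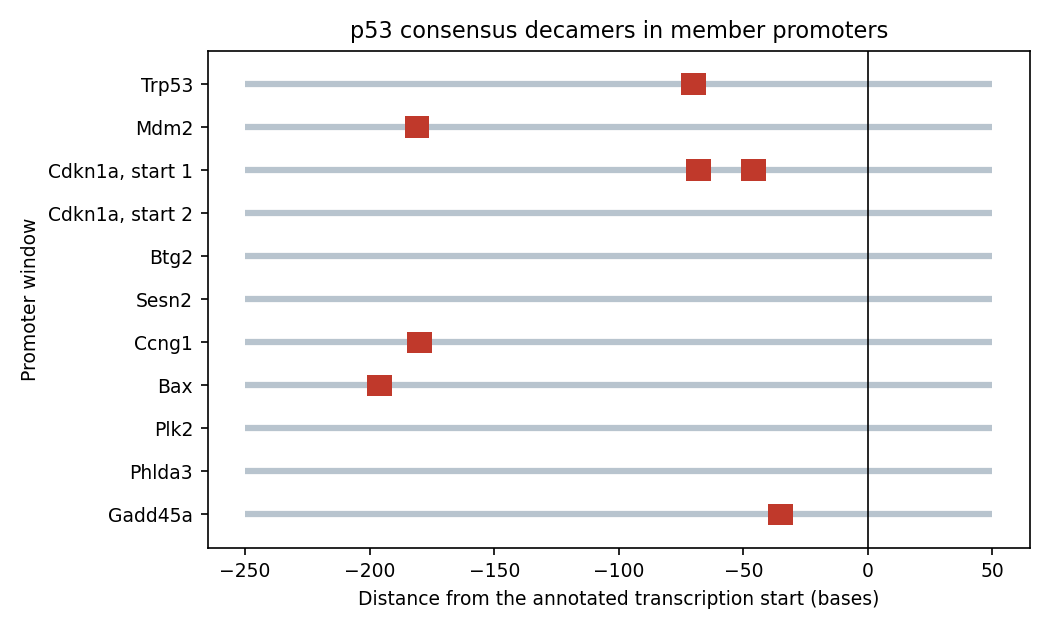
Position of exact p53 consensus decamers (red blocks, 10 bases each) in the promoter windows of the 10 genes, with the distance from the annotated transcription start in bases on the x axis. The windows of 6 genes hold a decamer, and that of the upstream Cdkn1a start holds 2.

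Measured genes with and without a decamer in the window had like ratios between the arrays. Of 862 with a decamer, 43 (4.99%) stood 1.5-fold or more above the wildtype array on the array labelled Nmyc9a and 94 (10.9%) stood 1.5-fold or more below it, with a median log2 ratio of -0.09. Of 9273 measured genes with a window and no decamer, 589 (6.35%) were higher and 903 (9.74%) lower, with the same median of -0.09. Only 6 genes with a spaced pair of decamers were measured, and all lay within 1.5-fold. Cdkn1a was one of these 6.

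Signals are the deposited intensities, those of the array labelled Nmyc9a being multiplied by 0.977 to centre the log2 ratios on 0. The signal floor was 49.3, and a probe set whose mean over both arrays lay below it was taken as unmeasured. Deposited medians were 77.7 on the array labelled Nmyc9a and 66 on the wildtype array. The targeted gene did not check the labels. The brightest Mycn probe set read 84.8 on the array labelled Nmyc9a, against 66.3 on the wildtype array. The other measured one read 85.4 on the array labelled Nmyc9a, against 51.1 on the wildtype array, so neither read lower. Both lay near the floor, and the remaining Mycn probe set was unmeasured (33.9 on the array labelled Nmyc9a, against 19.7 on the wildtype array). Whether these probes touch the changed stretch of Mycn was not stated in the sources used. The array is therefore called by its label, and every direction below rests on that label. All 15 markers of lung epithelium, endothelium and stroma were above the floor on both arrays, with sums 1.02 (epithelium) and 1.01 (endothelium and stroma) times those of the wildtype array. Single epithelial markers moved both ways under the near-equal sum, with log2 ratios from -0.71 (Aqp5) to 0.71 (Foxj1), each past 1.5-fold.

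The p53 targets lay on both sides of their wildtype levels. By the brightest probe set of each gene, and with a size rule of 1.5-fold, Btg2 was higher on the array labelled Nmyc9a, Mdm2 and Plk2 were lower, and the other 5 genes lay within 1.5-fold. That is 1 of 8 genes higher, against 6.33% of the 12600 measured genes, and 2 of 8 lower, against 9.7% of them. After quantile normalization 1 gene was higher and 1 lower, and after loess on mean signal 1 was higher (Btg2) and none lower. Of all measured genes, 642 of 12592 were higher and 1377 lower after quantile normalization. After loess 693 of 12600 were higher and 1200 lower. None of the 8 was 2-fold apart, against 1.29% of all measured genes higher and 1.38% lower by that much. The median log2 ratio of the 8 genes was -0.23 and that of all measured genes was -0.09. Over the 15 measured probe sets, 3 passed 1.5-fold on the higher side and 3 on the lower, where all measured probe sets gave 9.32% and 9.24%. The median over these 15 probe sets was -0.11.

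The only spread these data can give is the disagreement between probe sets of one gene. It compares probe sets read on the same 2 arrays, so it holds no variation between arrays or animals. A ratio larger than this spread is therefore no evidence of a difference between genotypes. The pooled SD between probe sets was 0.40 on the log2 scale, or 1.32-fold, over 5671 genes with at least 2 measured probe sets. Of the 8 genes, 5 had at least 2 measured probe sets. Mdm2 and Plk2 had probe sets on both sides of 0, as did 49.8% of all such genes.

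**Figure D2:**
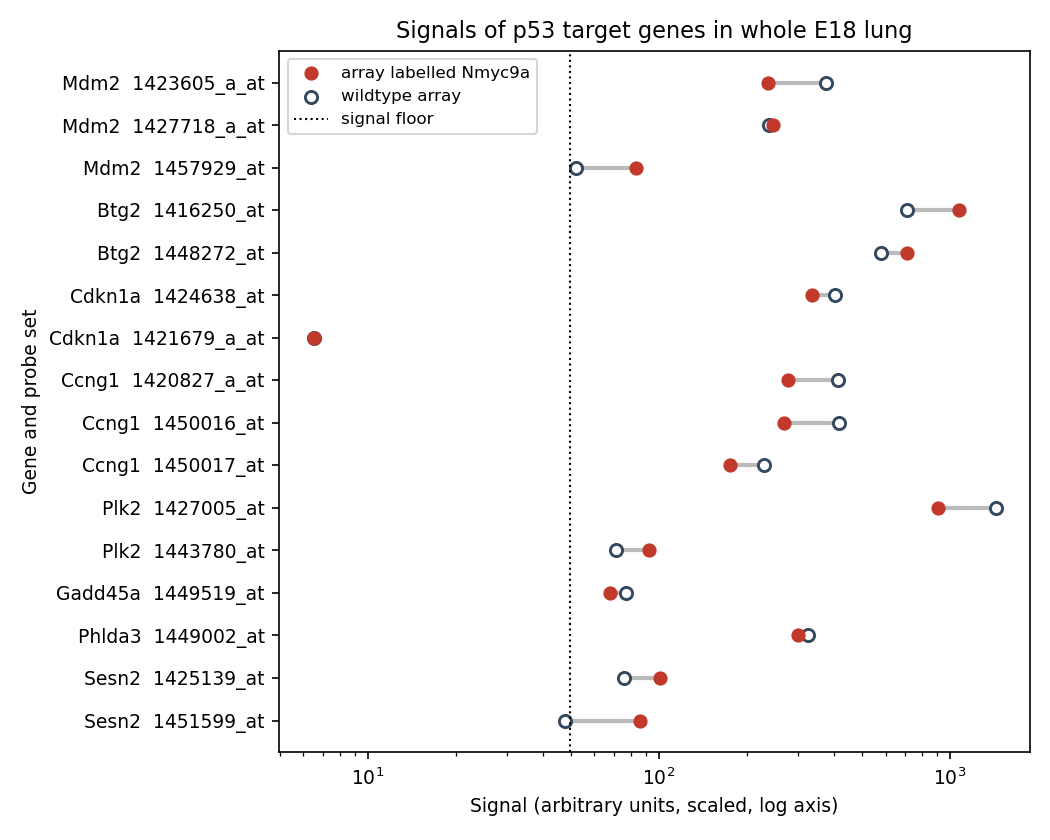
Signal of each of the 16 probe sets on the array labelled Nmyc9a (red) and on the wildtype array (open), on a log axis in arbitrary units, with the floor of 49.3 dotted. Ccng1 reads lower on the array labelled Nmyc9a with all 3 probe sets and Btg2 and Sesn2 read higher with both of theirs, while the probe sets of Mdm2 and Plk2 point in opposite directions.

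Mdm2, the ligase that restrains p53 and is among its most direct targets, gave a different answer with each of its 3 probe sets. Probe set 1423605_a_at read 236 on the array labelled Nmyc9a, against 376 on the wildtype array (log2 ratio -0.67, 1.59-fold lower). Probe set 1427718_a_at read 246 on the array labelled Nmyc9a, against 239 on the wildtype array (log2 ratio 0.04). Probe set 1457929_at read 83.6 on the array labelled Nmyc9a, against 51.8 on the wildtype array (log2 ratio 0.69, 1.61-fold higher), the wildtype value lying just above the floor. So the dimmest probe set and the brightest passed the 1.5-fold rule in opposite directions. Probe sets past the rule in both directions occurred in 2.2% of the 5671 genes that had 2 or more measured. The spread of 1.36 between the lowest and highest log2 ratio was reached or passed by 5.73% of 1431 genes with exactly 3 measured probe sets. Which transcripts of Mdm2 each probe set reads is not given in the sources used here, so no single direction is given for the gene. After loess on mean signal the brightest probe set stood at -0.58 and the dimmest at 0.51, both within 1.5-fold.

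Cdkn1a, which encodes the cyclin-dependent kinase inhibitor p21 and is the classical arrest target of p53, lay within 1.5-fold. Probe set 1424638_at read 335 on the array labelled Nmyc9a, against 404 on the wildtype array (log2 ratio -0.27, 1.21-fold lower). The difference is within the pooled SD of 0.40. The other probe set, 1421679_a_at, read 6.55 on the array labelled Nmyc9a, against 6.50 on the wildtype array, far below the floor on both arrays, and gives no ratio. The brighter ratio placed Cdkn1a above 31.8% of all measured genes.

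Btg2, an antiproliferative protein that slows entry into S phase, was the member highest on its brightest probe set. Probe set 1416250_at read 1071 on the array labelled Nmyc9a, against 713 on the wildtype array (log2 ratio 0.59, 1.502-fold higher). Probe set 1448272_at read 709 on the array labelled Nmyc9a, against 578 on the wildtype array (log2 ratio 0.29, 1.23-fold higher). Both read the same way, the first just past the 1.5-fold rule and the second within the SD between probe sets. With a pseudocount in place of the floor the first came to 0.58, just inside the rule. The brightest ratio stood above 93.7% of all measured genes. Btg2 is also an immediate early gene, which growth factors induce without p53.

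Ccng1, cyclin G1, a target that feeds back on Mdm2 activity, was lower with all 3 probe sets. Probe set 1420827_a_at read 277 on the array labelled Nmyc9a, against 411 on the wildtype array (log2 ratio -0.57, 1.48-fold lower). Probe set 1450016_at, nearly as bright, read 269 on the array labelled Nmyc9a, against 416 on the wildtype array (log2 ratio -0.63, 1.55-fold lower). Probe set 1450017_at read 175 on the array labelled Nmyc9a, against 229 on the wildtype array (log2 ratio -0.38, 1.30-fold lower). The annotation gives the 3 the same source sequence, as it does for the pair of Btg2 and the pair of Sesn2, so they are not independent readings of the gene. Their log2 ratios spanned 0.25, and 82.3% of genes with 3 measured probe sets spanned at least as much. The brightest ratio fell just short of the size rule and stood above 10.4% of all measured genes.

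Plk2, a polo-like kinase of the centrosome cycle and of the response to stress, was split between its probe sets. The bright probe set 1427005_at read 911 on the array labelled Nmyc9a, against 1434 on the wildtype array (log2 ratio -0.65, 1.57-fold lower). The dim probe set 1443780_at read 92.2 on the array labelled Nmyc9a, against 71.3 on the wildtype array (log2 ratio 0.37, 1.29-fold higher). Their difference of 1.02 was reached or passed by 6.80% of 3207 genes with exactly 2 measured probe sets. The bright ratio was larger than the SD between probe sets and the dim one was within it. The dim probe set was not measured with the floor at the 60th percentile, so the split rests on a weak signal. The bright ratio came within 1.5-fold after quantile normalization (-0.43) and after loess on mean signal (-0.42). The dim ratio came to 0.18 and 0.20 under the same 2 scalings. Plk2 is likewise an immediate early gene.

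Gadd45a, a stress-induced protein that restrains cell division and takes part in DNA repair, read 67.6 on the array labelled Nmyc9a, against 77.3 on the wildtype array (log2 ratio -0.19). Its single probe set, 1449519_at, lay near the floor on both arrays. Phlda3, which blocks Akt at the membrane and so favours cell death, read 300 on the array labelled Nmyc9a, against 324 on the wildtype array with its single probe set 1449002_at (log2 ratio -0.11). Both differences lie within the pooled SD.

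Sesn2, sestrin 2, which dampens mTORC1 signalling under stress, read higher with both probe sets at low signal. Probe set 1425139_at read 101 on the array labelled Nmyc9a, against 75.7 on the wildtype array (log2 ratio 0.42, 1.33-fold higher). Probe set 1451599_at read 86 on the array labelled Nmyc9a, against 47.4 on the wildtype array, and since the wildtype value was below the floor it was at least 1.74-fold higher. The brighter ratio was about the size of the SD between probe sets and stood above 88.3% of all measured genes. It came to 0.24 after quantile normalization and 0.26 after loess on mean signal. Sesn2 is also induced by nutrient and endoplasmic reticulum stress through Atf4.

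**Figure D3:**
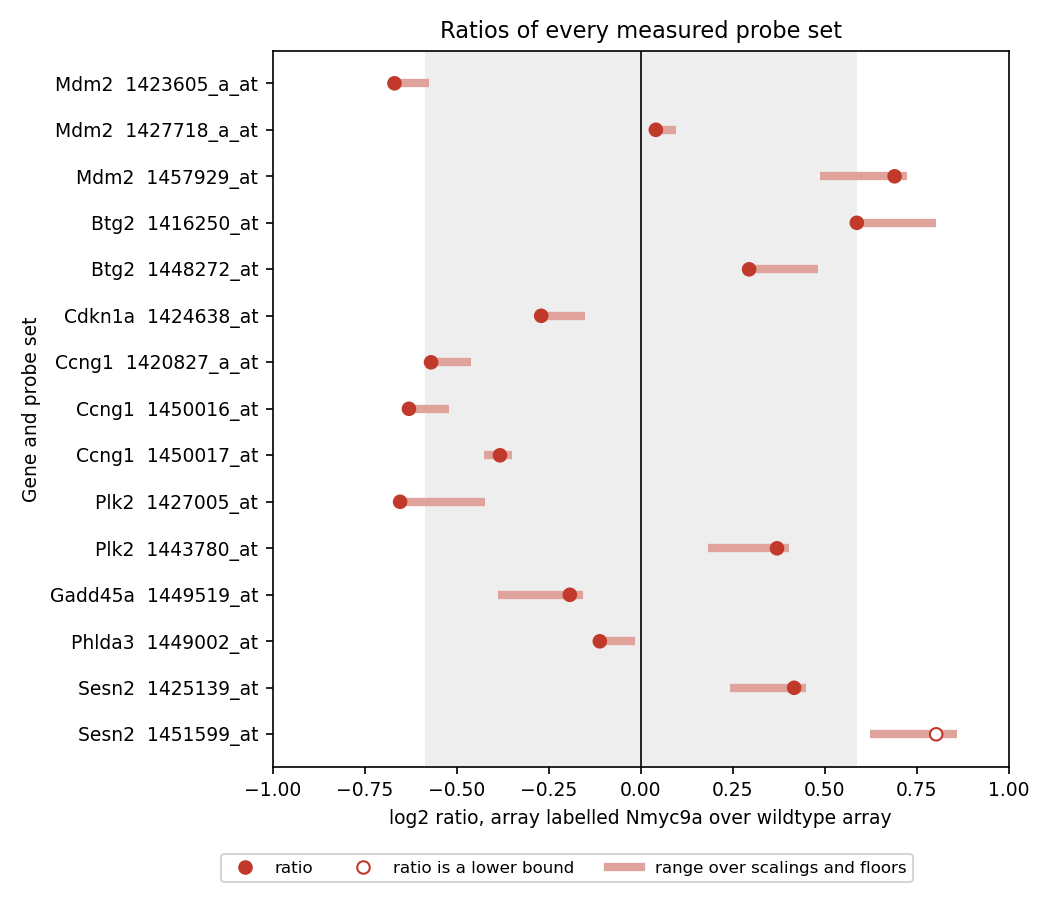
Log2 ratio (array labelled Nmyc9a over wildtype array) of the 15 measured probe sets, as points, with bars for the range over the alternative scalings and floors and a grey band for 1.5-fold in either direction. No bar crosses 0, though only quantile normalization and loess could have moved one across it. The open point (Sesn2) is a lower bound.

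**Figure D4:**
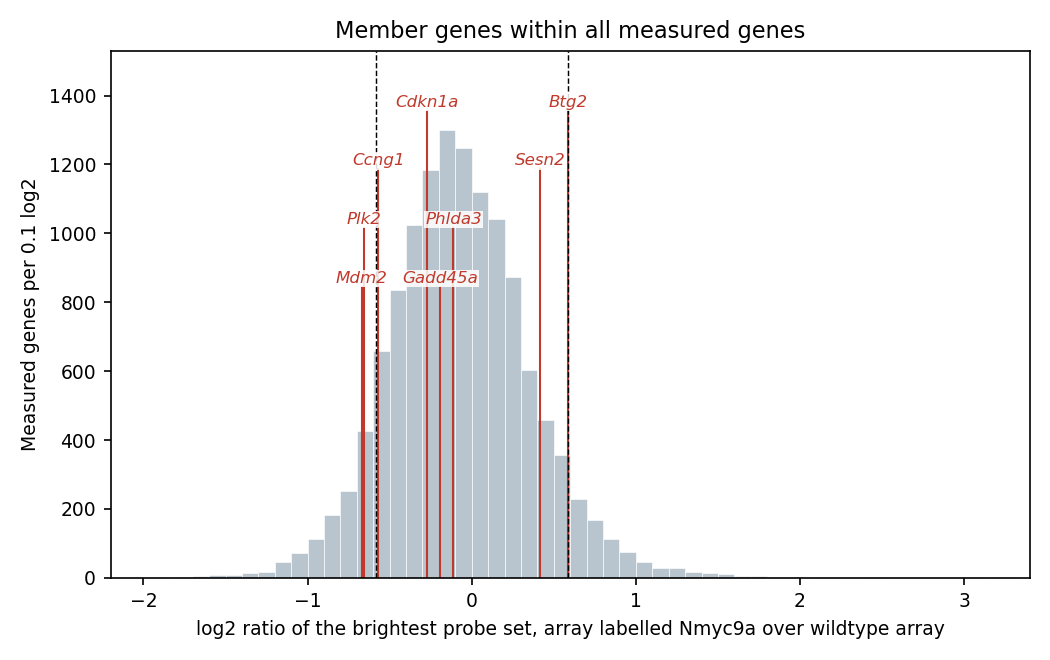
Histogram of the log2 ratio (array labelled Nmyc9a over wildtype array) of all 12600 measured genes, by their brightest probe set, with the 8 genes marked in red and 1.5-fold dashed. The 8 genes run from -0.67 (Mdm2, above 6.69% of measured genes) to 0.59 (Btg2, above 93.7%). Of the 8, 6 lay below 0 and 2 (25%) above it. Of all 12600 genes 7400 lay below 0 and 41.3% above it.

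The wider p53 network was read from 107 regulators and targets in 5 lists by role, which include the 10 genes above. Of these, 98 had a probe set and 85 were measured. By the same 1.5-fold rule 5 were higher (5.88%, against 6.33% of all measured genes) and 9 lower (10.6%, against 9.7%). After loess on mean signal 6 were higher and 5 lower, against 693 higher and 1200 lower of all 12600 measured genes. The median log2 ratio was -0.11, against -0.09 for all measured genes. With the 8 genes left out, 4 of 77 were higher and 7 lower.

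The shares by list below stand against 6.33% higher and 9.7% lower for all measured genes. In lists this short a single gene changes a share greatly. Among 25 measured regulators and relatives of p53, 2 (8%) were higher and 3 (12%) lower by 1.5-fold. Mdm4, the partner of Mdm2 that masks the activation domain of p53, was highest at 218 on the array labelled Nmyc9a, against 70.6 on the wildtype array (log2 ratio 1.63, 3.09-fold higher). Its other 2 measured probe sets stood at -0.41 and 0.23, so the Mdm4 value rests on 1 probe set, 1460542_s_at. Ppp1r13l, which encodes the p53 inhibitor iASPP, was 1.66-fold higher by its brightest probe set, with the others at 0.06 and -0.43. Chek1, the checkpoint kinase of S phase, had 1 of 5 probe sets measured. It read 38.1 on the array labelled Nmyc9a, below the floor, against 79.7 on the wildtype array, so at least 1.62-fold lower. Kat5, the acetyltransferase Tip60, was 1.54-fold lower by its brightest probe set, with the other at 0.23. The third gene past the rule on the lower side was Mdm2, by its brightest probe set only, with the others at 0.04 and 0.69.

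Of 14 measured arrest targets, 1 was higher (Btg2, 7.14%) and 2 lower (Plk2 and Psrc1, 14.3%). All measured genes gave 6.33% and 9.7%. Psrc1, a spindle protein, had 1 of 3 probe sets measured. It read 41.5 on the array labelled Nmyc9a, below the floor, against 106 on the wildtype array, so at least 2.15-fold lower. Ptprv stood at 0.17, second after Btg2. Of 16 measured death targets, 1 was higher and 1 lower (6.25% each). Igfbp3, which binds insulin-like growth factors, was 1.74-fold higher (259 on the array labelled Nmyc9a, against 149 on the wildtype array) and its other probe set 1.55-fold higher. Siva1, a small proapoptotic protein, was 1.59-fold lower, with 3 of 4 measured probe sets below 0. Fas, the death receptor, stood at 0.41 and Ei24 at -0.47.

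Of 9 measured targets in DNA repair and nucleotide supply, 2 were lower (22.2%) and none higher. All measured genes gave 9.7% lower and 6.33% higher, and 9 genes are too few to compare with these shares. Pcna, the sliding clamp of DNA replication and itself a marker of dividing cells, read 550 on the array labelled Nmyc9a, against 1229 on the wildtype array (2.23-fold lower). Rps27l, a ribosomal protein S27 paralogue induced by p53, was lower by 1.61-fold to 1.69-fold with all 3 probe sets (the brightest at 1161 on the array labelled Nmyc9a, against 1927 on the wildtype array). Its sequence is close to that of Rps27, and whether these probes also read Rps27 was not tested. Polk stood at 0.31 and Fancc at 0.20 by their brightest probe sets, the other measured Fancc probe sets being at 0.80 (1.74-fold higher) and -0.26. Of 21 measured targets in metabolism and growth control, 1 was higher and 1 lower (4.76% each). Cpt1c was at least 1.52-fold higher (75 on the array labelled Nmyc9a, against 45.2 on the wildtype array) and Ulk1, a kinase that starts autophagy, was 1.54-fold lower by its brightest probe set, with the other at a log2 ratio of 0.23. Lpin1 stood at 0.51 and Tap1 at -0.56. For Tap1 only 1 of 4 probe sets was measured, and it lay near the floor (51.8 on the array labelled Nmyc9a).

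**Figure D5:**
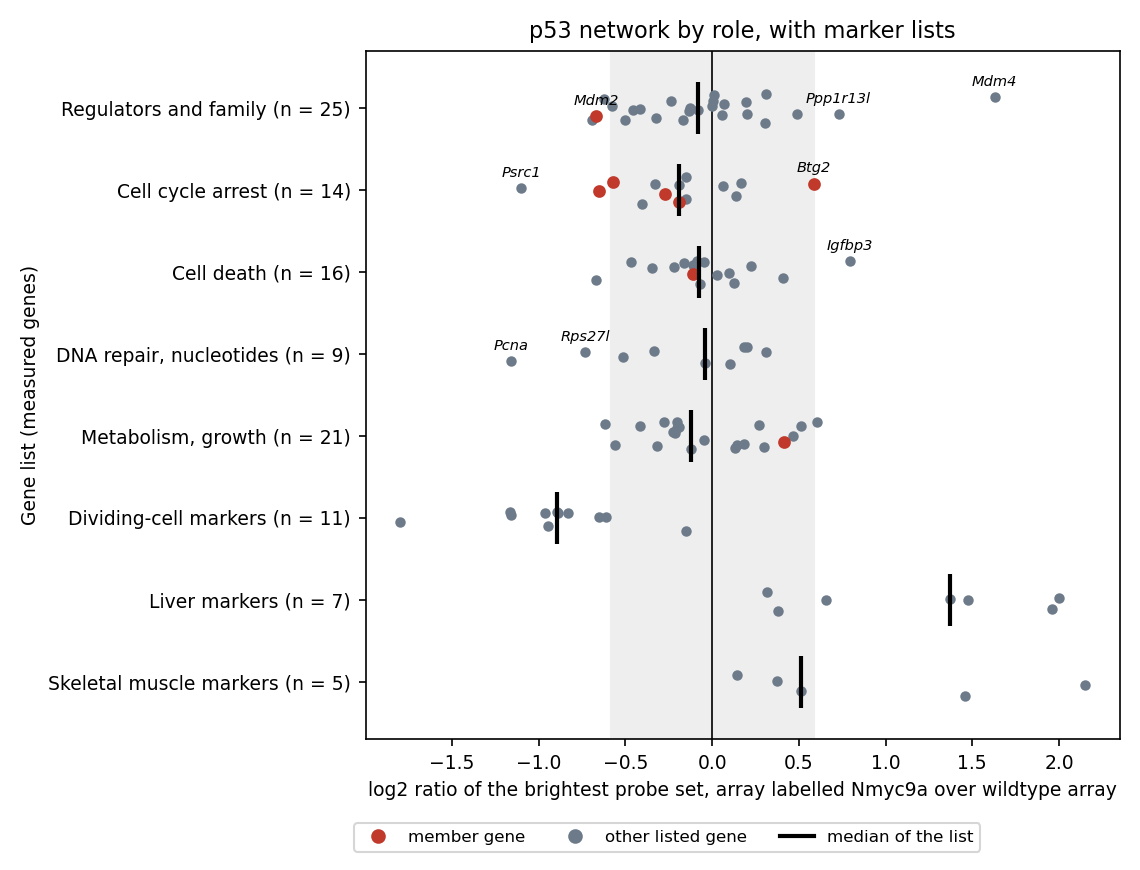
Log2 ratio (array labelled Nmyc9a over wildtype array) of each measured gene by list, with black bars for list medians, red points for the genes described above and a grey band for 1.5-fold in either direction. The medians of the 5 p53 lists lie between -0.19 and -0.04, while that of the dividing-cell markers is -0.89 and that of the liver markers 1.37.

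Markers of dividing cells, liver and skeletal muscle also differed between the arrays. Of 11 measured markers of dividing cells 10 (90.9%) were lower by 1.5-fold or more, against 9.7% of all measured genes. The signals of the 11 summed to 0.502 times the wildtype sum. Chek1, Psrc1 and Pcna are themselves abundant in dividing cells. Liver markers summed to 3.23 times and skeletal muscle markers to 2.12 times the wildtype sum. Of 10 liver markers with a probe set 8 were at or above the floor on the array labelled Nmyc9a, against 3 on the wildtype array. Of 11 skeletal muscle markers, 8 reached the floor on the array labelled Nmyc9a and 4 on the wildtype array. No marker of any list read 0 on either array. Heart muscle markers summed to 0.977 times the wildtype sum, with 2 of 8 measured markers higher by 1.5-fold or more and 0 lower. Leukocyte markers summed to 0.765 times and red cell markers to 0.737 times the wildtype sum. The part of these differences in the p53 target values was not tested.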

How the data were processed

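Total RNA of whole lungs was labelled with biotin and run by the Affymetrix protocol, per the labels. The deposited intensity is a linear value per probe set, and how the authors summarized and scaled it was not stated in the sources used. Its mean, trimmed by 2% at each end, was 150 on both arrays. The 64 control probe sets of 45101 were left out. Symbols were updated by Entrez identifier to RefSeq (GRCm38.p6), matching 34741 of 34945 probe sets with 1 symbol, while 932 with several and 9160 with none were not used.

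The scaled array was shifted by -0.03 (log2), over probe sets reaching the floor, the 40th percentile of scaled signals. Values below it were raised to it, so ratios against them are bounds. A gene took its brightest probe set and was measured if its mean signal reached the floor (12600 of 18193 genes). The code was tested on simulated data (Python 3.11.15, numpy 2.4.6, pandas 2.3.3, statsmodels 0.14.6). The small number of arrays is what limits precision. Genes of the wider lists were named if past 1.5-fold or among the 2 highest and 2 lowest of their list. The genes, lists and rules were chosen with earlier results of these data known. Alternatives covered scaling, floor, choice of probe set and size rule.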

Additional observations from a re-analysis of the deposited data

How the results depend on the processing

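Each measured probe set of the 8 genes kept its sign under every alternative scaling and floor in which it was measured. A floor or a pseudocount cannot reverse a sign, and the deposited signals differ by too little to do so. Only quantile normalization and loess could have reversed one. Many of the comparisons of gene ratios could not have shown a move as large as the SD between probe sets. Changing or removing the floor left the ratio of every gene still measured as it was. The deposited signals shifted all ratios alike, by far less than that SD. Another choice of probe sets could not move a gene with a single measured probe set. The gene ratios moved by less than the SD in 67 of 70 comparisons, a count that therefore does not measure stability. The exceptions were Mdm2, at 0.041 when probe sets were summarized by their median and 0.69 without x, s and a probe sets (names ending _x_at, _s_at or _a_at), and Plk2 at -0.14 by that median. These follow from how the probe sets of a gene were chosen or summarized. By the median of probe sets Btg2 stood at 0.44, inside the 1.5-fold rule, and Sesn2 at 0.61, past it, so 1 gene was still higher but not the same one. Without x, s and a probe sets Ccng1 passed the rule on the lower side (-0.63) as Mdm2 passed it on the higher. Of the 8 genes, 2 were higher without those probe sets, and 0 were higher with a pseudocount of 16 or under a 2-fold rule. After quantile normalization 1 was lower, and 0 were lower after loess, by the median of probe sets or under the 2-fold rule. Of the 85 measured genes of the wider list, 3 were higher with the pseudocount and 1 under the 2-fold rule. Of the same 85, 5 were lower after loess and 2 under the 2-fold rule. Of all measured genes, 834 of 10905 were higher and 993 lower without x, s and a probe sets. With the pseudocount 666 of 12600 were higher. By the median of probe sets 736 of 12600 were higher and 986 lower. Quantile normalization gave 1377 of 12592 lower and loess 1200 of 12600. Under the 2-fold rule 163 of 12600 were higher and 174 lower. With the floor at the 20th percentile 1659 of 15715 were higher, and with it at the 60th 356 of 9382. A floor also sets which genes count as measured. For the other moves the cause was not tested. The median of the 8 genes ranged from -0.29 to -0.13 where all were measured, and was -0.42 over the 6 measured with the floor at the 60th percentile, without Sesn2 and Gadd45a. No paired analysis was possible because each group holds 1 array. Signals near the floor limit Gadd45a, Sesn2, the dimmest Mdm2 probe set and the dim Plk2 probe set.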
